A study of Mus musculus with 24 samples.

Results

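The genes described here are 33 listed targets and regulators of the sterol regulatory element binding proteins (SREBPs), the transcription factors that control the synthesis of cholesterol and fatty acids. Members were taken by symbol from array rows that carry exactly 1 gene symbol, and a gene with several such rows was represented by the one whose mean over the 24 arrays was highest. This gave 31 of the 33 members, among 22180 genes with such a row. All 31 passed the filter on low values, which left 15496 genes to test. The other 2, Idi1 and Scd2, lie only on rows that several gene symbols share and are not analysed here.

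RNA was measured on 24 arrays from cells sorted out of the collagenase-digested gonadal fat of male C57Bl/6 mice. CD11c is an integrin that separates macrophage populations of fat. The weight loss (WL) groups were 3 arrays of CD11c+ adipose tissue macrophages (ATM) and 2 of CD11c- ATM, from mice taken off a high fat diet (HFD) with 60% fat for 8 weeks after 12 weeks on it. The HFD groups, from obese mice, had 3 arrays each of CD11c+ ATM, CD11c- ATM, dendritic cells of fat (ATDC) and preadipocytes (PA). The normal diet (ND) groups, from lean mice, had 2 arrays of CD11c- ATM, 2 of ATDC and 3 of PA. Each HFD array, and each ND PA array, was made from a pool of 3 to 4 mice, and the ND ATM and ATDC arrays from 2 pools of cells from 4 mice. CD11c+ ATM of ND mice were too few to purify. The sources used here do not give the ages of the mice, how long the HFD groups were fed, the other sort markers, or the pooling behind the WL arrays. Whether pools of different cell types came from the same mice is not stated either, and p-values measure the spread between these pools. A number after a group's name is the replicate number of an array.

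SREBPs are made as precursors in the membrane of the endoplasmic reticulum, bound to the escort protein SCAP. When membrane sterols are plentiful, INSIG proteins hold the complex there. When sterols run low, SCAP carries the precursor to the Golgi, where proteases release the part that enters the nucleus and switches on its target genes. The product of Srebf2 acts mainly on genes of the sterol pathway and that of Srebf1 mainly on genes of fatty acid synthesis. Preadipocytes acquire much of the fatty acid machinery as they become adipocytes, while fat macrophages of obese animals take up lipid and cholesterol from dying adipocytes.

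RefSeq promoter sequences of build GRCm38.p6, each from 250 bases before to 50 bases after an annotated transcription start, were found for 26 of the 33 members, with 35 windows in all. Fdps, Fdft1, Sqle, Stard4, Scd1, Scd2 and Fads1 had no entry. The sterol regulatory element spelled TCACNCCAC, read on both strands, was in 1 of the 35 windows (2.86%), that of Hmgcs1, against 1.24% of all 32851 windows of this length. CCAAT, the letters bound by the factor NF-Y, was in 65.7% of member windows, against 37.4% of all windows. The E-box CACGTG was in 17.1% of member windows, in those of Dhcr7, Hsd17b7, Insig1, Sc5d and Scap, against 7.15% of all windows. GGGCGG, a GC box, was in 74.3% of member windows, against 35.7% of all windows. A match is a description of letters and not of binding. TCACNCCAC was the only spelling of a sterol element searched, so a window without it is not shown to lack such an element. The 250 bases before the start are printed for Hmgcs1, which holds the only match to that spelling, for Sc5d and Hsd17b7, which hold the E-box, and for Cyp51. Sc5d and Cyp51 are shown because they passed the test in comparisons of macrophage groups. Hsd17b7 is shown because it passed in ND PA against ND CD11c- ATM, where Sc5d passed too. The stretches lie directly upstream of the start, at chr13:119690101-119690350 on the plus strand for Hmgcs1, chr9:42264301-42264550 on the minus strand for Sc5d, chr1:169969206-169969455 on the minus strand for Hsd17b7 and chr5:4104698-4104947 on the minus strand for Cyp51. Each reads 5′ to 3′ on the gene's strand, and capitals mark TCACNCCAC, CACGTG or CCAAT, with the last seen as ATTGG where it lies on the opposite strand.
Hmgcs1: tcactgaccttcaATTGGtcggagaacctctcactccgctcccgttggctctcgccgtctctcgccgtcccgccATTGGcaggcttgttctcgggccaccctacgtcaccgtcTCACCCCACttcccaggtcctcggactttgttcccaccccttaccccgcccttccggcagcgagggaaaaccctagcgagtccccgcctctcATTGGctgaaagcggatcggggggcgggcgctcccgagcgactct
Sc5d: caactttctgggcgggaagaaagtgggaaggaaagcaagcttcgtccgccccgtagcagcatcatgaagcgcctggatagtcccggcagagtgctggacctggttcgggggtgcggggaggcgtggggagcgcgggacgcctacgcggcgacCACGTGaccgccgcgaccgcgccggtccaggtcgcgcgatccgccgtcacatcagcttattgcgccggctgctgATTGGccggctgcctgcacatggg
Hsd17b7: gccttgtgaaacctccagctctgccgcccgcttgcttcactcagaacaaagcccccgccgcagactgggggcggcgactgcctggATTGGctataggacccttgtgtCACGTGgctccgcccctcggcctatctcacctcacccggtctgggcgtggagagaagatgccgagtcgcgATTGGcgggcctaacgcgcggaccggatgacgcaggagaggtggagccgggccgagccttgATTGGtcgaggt
Cyp51: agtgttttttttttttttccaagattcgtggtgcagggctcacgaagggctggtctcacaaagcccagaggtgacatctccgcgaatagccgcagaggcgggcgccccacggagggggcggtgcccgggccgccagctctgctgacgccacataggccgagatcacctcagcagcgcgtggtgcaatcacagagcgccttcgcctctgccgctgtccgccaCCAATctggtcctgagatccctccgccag

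The deposited values are log2 expression values after robust multi-array averaging, and the medians of the 24 arrays lay between 2.96 and 3.15. Pairs of arrays of the same group correlated at 0.878 to 0.982 over the tested genes, and pairs of different groups at 0.710 to 0.968. The mean correlation with the own group was lowest on the WL arrays, at 0.8815 to 0.918, against at least 0.936 on every other array. On 7 arrays, all 3 HFD CD11c- ATM, HFD ATDC 2, WL CD11c+ ATM 2 and 3, and WL CD11c- ATM 2, the mean correlation with some other group exceeded that with their own. Marker lists bore out the cell labels in part: the median macrophage marker lay between 9.62 and 10.65 on ATM arrays, and dendritic cell markers at 7.86 to 8.57 on ATDC arrays against 3.02 to 4.59 on the others. Fibroblast and preadipocyte markers lay at 10.28 to 10.58 on PA arrays, but also at 9.08 on HFD CD11c- ATM 3, at 8.83 and 8.36 on the WL CD11c- ATM arrays and down to 4.67 elsewhere. Macrophage markers lay at 4.20 to 8.12 on PA arrays and at 8.14 to 9.62 on ATDC arrays. Markers of other cells were high on some arrays, among them mast cell markers at 9.34 and 9.50, B cell markers at 6.02 and 5.74 and endothelial markers at 5.58 and 6.09 on the WL CD11c- ATM arrays. On the ND ATDC arrays NK cell markers lay at 7.16 and 7.53 and T cell markers at 6.07 and 6.86. Precision is limited by the 2 or 3 arrays per group.

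Across the 9 groups, group means spread widely for Fads2, Me1 and Scd1, and the ND PA group held the highest mean for 15 of the 31 genes. How often ND PA held it over all tested genes was not counted, so whether this sets the members apart cannot be said. Fads2, the delta-6 desaturase of polyunsaturated fatty acids, had a highest group mean of 8.59 in ND PA and a lowest of 4.44 in HFD ATDC, a range of 4.15 on the log2 scale. Me1, the malic enzyme that supplies NADPH, had a range of 4.08, with a mean of 7.24 in ND PA and 3.17 in HFD ATDC, where 2 of 3 arrays were above their own median, so its range may be understated. Scd1, the stearoyl-CoA desaturase, ranged over 2.97, with its highest mean in HFD PA. In the sterol branch the widest range was 2.91, for Sc5d, the sterol C5-desaturase, which averaged 8.14 in ND PA and 5.23 in WL CD11c- ATM. The narrowest was 0.59, for Ebp, the sterol isomerase. Relative to each array's own median, 26 of the 31 genes lay above it on all 24 arrays. The exceptions were Fdft1 and Acss2 on 23, Me1 on 21, Hsd17b7 on 20 and Lss on 16.

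In the mevalonate steps, Hmgcs1, the HMG-CoA synthase, had group means from 5.60 in WL CD11c- ATM to 7.68 in ND PA, with a pooled SD within groups of 0.54. Fdps, the farnesyl diphosphate synthase, ran from 5.92 in ND CD11c- ATM to 7.63 in WL CD11c+ ATM, but its SD within groups was 0.76. The mevalonate kinase Mvk ranged over 0.96, the phosphomevalonate kinase Pmvk over 1.22 and the decarboxylase Mvd over 0.68. Pmvk was lowest in ND PA, at 5.92, where Hmgcs1 and Mvk were highest. From squalene on, the ranges of group means were 2.39 for Fdft1, the squalene synthase, 2.37 for Sqle, 2.67 for Hsd17b7 and 2.11 for Cyp51. They were 1.43 for Msmo1, 1.32 for Nsdhl, 1.27 for Tm7sf2, 1.10 for Lss and 0.80 for Dhcr7. For Fdft1 and Dhcr7 the SD within groups, 0.84 and 0.53, was a large part of that range.

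Of the regulators, Insig2 had the widest range of group means, 1.93, with 6.31 in ND PA and 4.38 in WL CD11c- ATM. Srebf2 ran from 6.87 in HFD CD11c- ATM to 8.17 in ND ATDC. Srebf1, Scap, Insig1 and Stard4 ranged over 0.72, 0.94, 0.92 and 0.88. Of the fatty acid synthesis genes, Acss2 ranged over 1.80, Fasn over 1.47, Acaca over 1.29 and Acly over 0.75, all highest in ND PA. The delta-5 desaturase Fads1 ran from 6.25 in ND ATDC to 8.35 in HFD PA, and Elovl6, the elongase of palmitate, from 4.05 in HFD ATDC to 6.09 in ND PA.

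**Figure D1:**
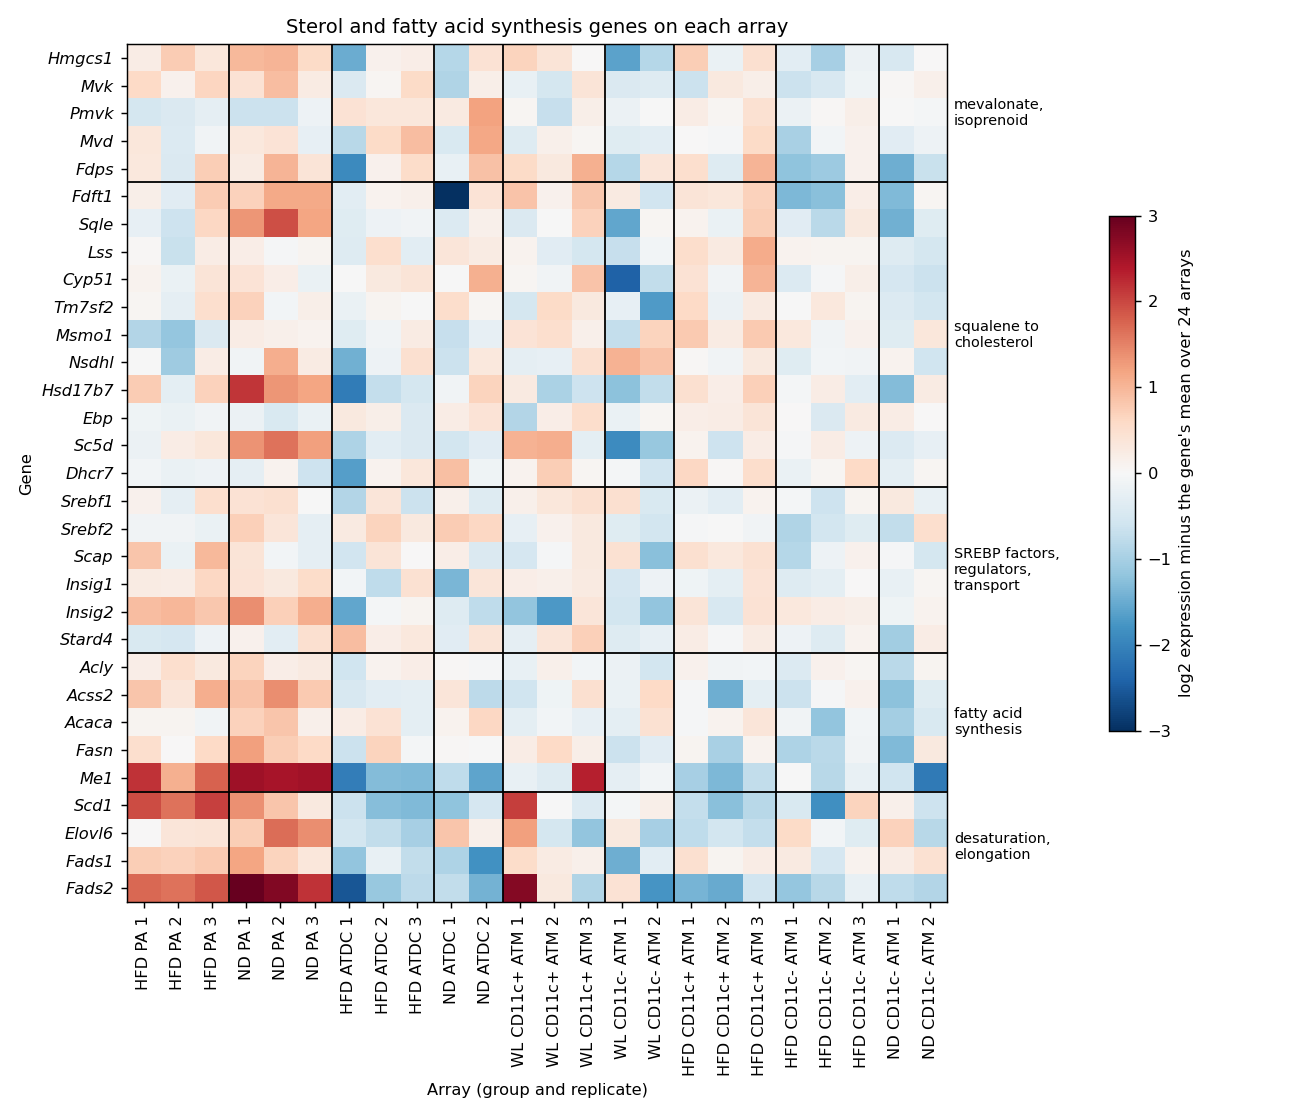
Log2 expression of the 31 measured members (rows, ordered by role) on each of the 24 arrays (columns, by group), shown as the difference from the gene's own mean over all arrays. Me1 and Fads2 stand high on the PA arrays, where Fads2 averaged 8.59 in ND PA, and Sc5d is lowest on the WL CD11c- ATM arrays.

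Preadipocytes of lean mice were compared with CD11c- ATM of lean mice to see how the programme differs between stromal cells and macrophages. The same ND CD11c- ATM arrays also serve the diet, weight loss and dendritic cell comparisons, which are thus not independent of this one. In ND PA 8 of the 31 genes were higher than in ND CD11c- ATM and 0 lower at an adjusted p under 0.05, which is 25.8% of members, against 23.4% of all tested genes called in either direction. Over all tested genes, 12.6% were higher and 10.8% lower. The 8 were 4 of the 5 fatty acid synthesis genes (Me1, Acss2, Fasn and Acaca), the desaturase Fads2, and 3 of the 11 genes from squalene to cholesterol (Sqle, Hsd17b7 and Sc5d). Of the 31 differences 28 were above 0, with a median of 0.74 against -0.0124 over all tested genes. Every ND PA array read above both ND CD11c- ATM arrays for 20 members, 64.5% against 25.8% of all tested genes, and below both for 2, 6.45% against 24.7%. Fibroblast markers were higher for 10 of 10 genes and macrophage markers lower for 9 of 9. In RNA of sorted pools, fewer cells of a type and less RNA per cell cannot be told apart.

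Me1 had log2 values of 7.27, 7.20 and 7.26 in ND PA, against 4.14 and 2.62 in ND CD11c- ATM. Every PA array stood far above the higher ATM array, and 1 of the 2 ATM arrays had Me1 above its own median. The difference was 3.86 ± 0.60 (SE, limma, adjusted p = 4.8e-05), and it stayed past the threshold whichever array was left out. Fads2 read 8.94, 8.72 and 8.11 in ND PA, against 5.17 and 5.06 in ND CD11c- ATM. These groups too lay wide apart, by 3.48 ± 0.76 (limma, adjusted p = 0.0017). Acss2, which makes acetyl-CoA from acetate, read 5.31, 5.86 and 5.24 in ND PA, against 3.24 and 4.09 in ND CD11c- ATM, a rise of 1.80 ± 0.44 (limma, adjusted p = 0.0046).

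Acaca, the acetyl-CoA carboxylase that commits carbon to fatty acids, read 5.25, 5.38 and 4.71 in ND PA, against 3.54 and 4.10 in ND CD11c- ATM. It was higher by 1.29 ± 0.33 (limma, adjusted p = 0.0065). Fasn, the fatty acid synthase, read 6.37, 5.88 and 5.74 in ND PA, against 3.82 and 5.44 in ND CD11c- ATM. The second ATM array came close to the lowest PA array, and the difference of 1.37 ± 0.44 (limma, adjusted p = 0.029) was lost, to an adjusted p of up to 0.55, without ND CD11c- ATM 1 or ND PA 1. Acly, which splits citrate into acetyl-CoA, was the fatty acid synthesis gene that did not pass, at 0.75 ± 0.29 (limma, adjusted p = 0.065).

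In the sterol branch, Sqle, the squalene epoxidase, read 7.32, 7.93 and 7.18 in ND PA, against 4.56 and 5.64 in ND CD11c- ATM. The groups did not overlap, and the rise of 2.37 ± 0.49 (limma, adjusted p = 0.00098) held whichever array was left out, at an adjusted p of up to 0.042. Hsd17b7, the 3-ketosteroid reductase of the pathway, read 6.00, 5.18 and 5.04 in ND PA, against 2.55 and 4.09 in ND CD11c- ATM. That rise was 2.09 ± 0.51 (limma, adjusted p = 0.0041). Sc5d read 8.10, 8.36 and 7.97 in ND PA, against 6.34 and 6.50 in ND CD11c- ATM. Its rise of 1.72 ± 0.36 (limma, adjusted p = 0.0012) had an adjusted p of up to 0.02 with an array left out. ND CD11c- ATM 1 was the lower of its group for Acss2, Acaca, Fasn and Hsd17b7, and without it these 4 lost their calls, at adjusted p-values of up to 0.11, 0.12, 0.55 and 0.16, and 5 members were called.

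The genes of the SREBPs themselves did not pass. Srebf1 read 5.31, 5.38 and 4.87 in ND PA, against 5.17 and 4.66 in ND CD11c- ATM, and these ranges overlapped (0.27 ± 0.36, limma, adjusted p = 0.68). Srebf2 read 8.19, 7.84 and 7.21 in ND PA, against 6.74 and 7.98 in ND CD11c- ATM, with a difference of 0.39 ± 0.31 (limma, adjusted p = 0.44). Neither gene passed the test in any of the 12 comparisons, and neither did Scap, Insig1, Insig2 or Stard4. Stard4, a carrier of cholesterol between membranes, had group means between 4.56 in ND CD11c- ATM and 5.44 in HFD ATDC. A second row for Scap on the array, not used here, had a mean of 2.76 and correlated at -0.14 with the row used.

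**Figure D2:**
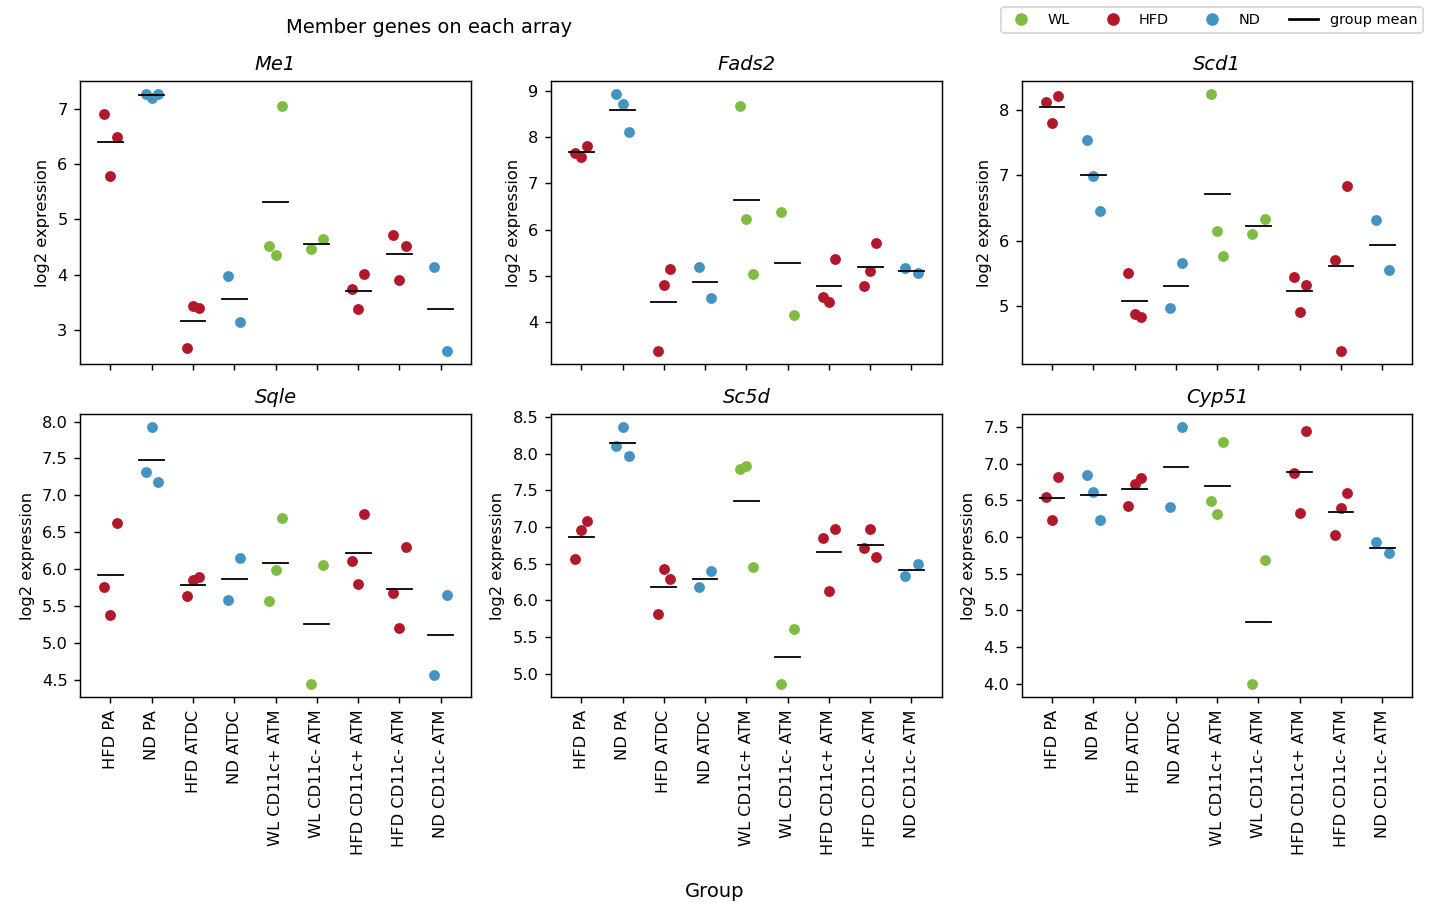
Log2 expression of Me1, Fads2, Scd1, Sqle, Sc5d and Cyp51 on each array (points) with the group mean (bar), by group. The 3 ND PA arrays read 7.27, 7.20 and 7.26 for Me1, above every macrophage and dendritic cell array, and the 2 WL CD11c- ATM arrays read 4.86 and 5.61 for Sc5d, below every other array.

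In obese mice, preadipocytes were set against CD11c+ ATM. Of the 31 genes 4 were higher in HFD PA than in HFD CD11c+ ATM and 2 were lower, 19.4% of members against 25.2% of all tested genes called in either direction (11.7% higher and 13.5% lower). The 4 higher genes were Fads2, Scd1, Me1 and Acss2, all of the fatty acid branch. The 2 lower were Msmo1 and Lss, both on the way from squalene to cholesterol, where 10 of the 11 differences were below 0 with a median of -0.349. The 4 desaturation and elongation genes all lay above 0, with a median of 1.87. Over all tested genes the median was -0.067.

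Scd1 read 8.12, 7.80 and 8.22 in HFD PA, against 5.45, 4.91 and 5.32 in HFD CD11c+ ATM. All 3 PA arrays stood well above every ATM array, by 2.82 ± 0.56 on average (limma, adjusted p = 0.00065), which is 7.04-fold. Fads2 read 7.65, 7.57 and 7.81 in HFD PA, against 4.55, 4.43 and 5.36 in HFD CD11c+ ATM. The groups were again far apart, with a difference of 2.90 ± 0.68 (limma, adjusted p = 0.0028). Me1 read 6.90, 5.79 and 6.50 in HFD PA, against 3.74, 3.38 and 4.00 in HFD CD11c+ ATM, a rise of 2.69 ± 0.53 (limma, adjusted p = 0.00066). Acss2 read 5.30, 4.83 and 5.57 in HFD PA, against 4.44, 2.99 and 4.17 in HFD CD11c+ ATM, with 1 ATM array well below the others. Its rise of 1.37 ± 0.40 (limma, adjusted p = 0.014) was lost without HFD CD11c+ ATM 2 or HFD PA 3, at an adjusted p of up to 0.11.

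Msmo1, the methylsterol monooxygenase, read 5.68, 5.40 and 6.14 in HFD PA, against 7.35, 6.80 and 7.35 in HFD CD11c+ ATM. Every PA array was below every ATM array, and the fall of 1.43 on the log2 scale (SE 0.30, limma, adjusted p = 0.0013) kept its call whichever array was left out, at an adjusted p of up to 0.01. Lss, the lanosterol synthase, read 3.41, 2.70 and 3.60 in HFD PA, against 3.92, 3.64 and 4.50 in HFD CD11c+ ATM. The groups nearly touched, and the fall of 0.78 (SE 0.28, limma, adjusted p = 0.049) was lost without HFD CD11c+ ATM 1 or 3 or HFD PA 1 or 2. The cell cycle list moved with this comparison: 14 of 14 of its genes were lower in HFD PA, with a median of -2.04, and its part in the result was not tested. The other 3 of the 6 member calls, Fads2, Scd1 and Me1, also held whichever array was left out.

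**Figure D3:**
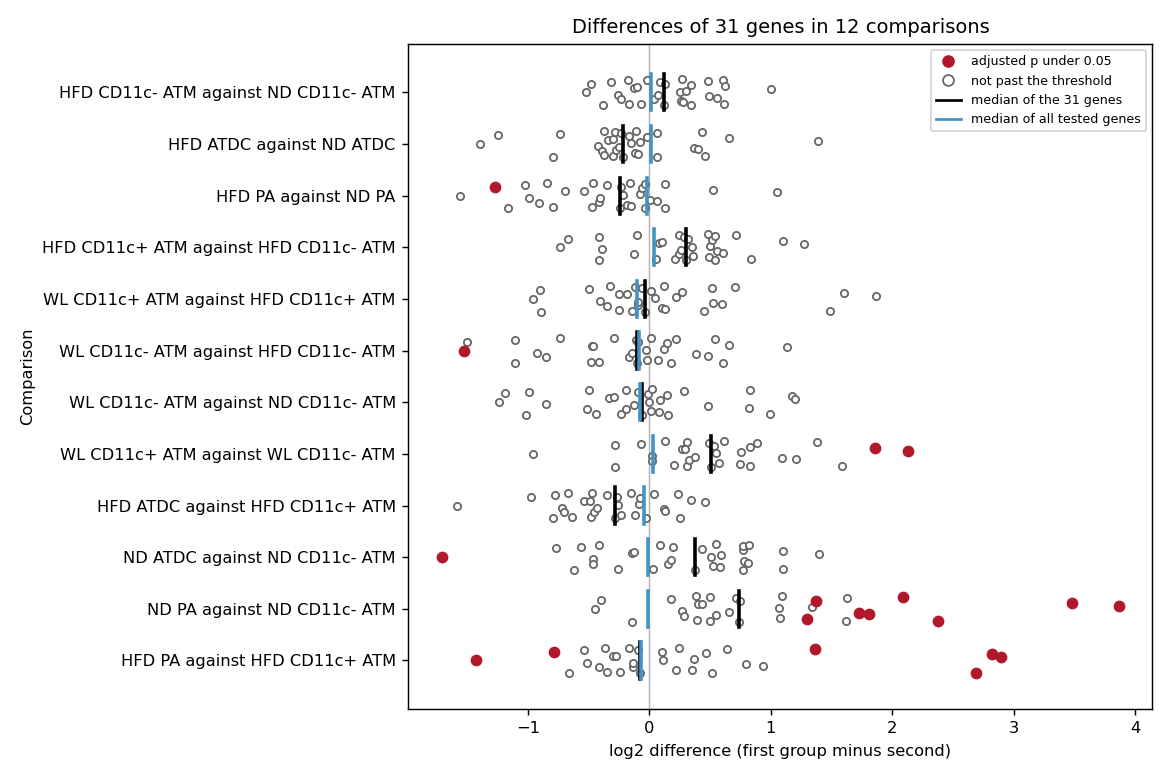
Log2 differences of the 31 members in each of the 12 comparisons (first named group minus the other); red points have an adjusted p under 0.05 in limma, and the black and blue lines are the medians of the members and of all tested genes. Members were called in 6 of the 12 comparisons, most often in ND PA against ND CD11c- ATM, where 8 rose and the member median was 0.74.

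HFD was compared with ND in preadipocytes, CD11c- ATM and dendritic cells. In preadipocytes 1 of 31 members, Sc5d, was lower in HFD PA than in ND PA and 0 higher, 3.23% of members, against 2.59% of all tested genes called in either direction and 0.897% called lower. Of the 31 differences 25 were below 0, with a median of -0.239 against -0.0173 over all tested genes. Among the 11 genes from squalene to cholesterol 9 were below 0, with a median of -0.692, and 5 of 5 fatty acid synthesis genes were, with a median of -0.476. For 9 members, 29.0%, every HFD PA array read below every ND PA array, against 10.8% of all tested genes. The reverse held for 1 member, Scd1, 3.23% against 9.03%.

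Sc5d read 6.57, 6.96 and 7.08 in HFD PA, against 8.10, 8.36 and 7.97 in ND PA. All 3 HFD arrays lay clearly below the ND arrays, and the fall was 1.27 on the log2 scale (SE 0.32, limma, adjusted p = 0.04). Leaving out any 1 of the 6 arrays took the call away, at an adjusted p of up to 0.18. Sqle read 5.75, 5.37 and 6.63 in HFD PA, against 7.32, 7.93 and 7.18 in ND PA, also without overlap. Its difference of -1.56 ± 0.44 did not pass (limma, adjusted p = 0.065). Msmo1 read 5.68, 5.40 and 6.14 in HFD PA, against 6.80, 6.73 and 6.67 in ND PA, a difference of -0.99 ± 0.30 (limma, adjusted p = 0.10). Hsd17b7 read 4.61, 3.57 and 4.55 in HFD PA, against 6.00, 5.18 and 5.04 in ND PA, a difference of -1.17 ± 0.45 (limma, adjusted p = 0.26). In these 4 genes of the late sterol pathway, no HFD PA array reached the level of an ND PA array.

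Scd1 ran the other way. It read 8.12, 7.80 and 8.22 in HFD PA, against 7.54, 6.99 and 6.46 in ND PA, and its difference of 1.05 ± 0.56 did not pass (limma, adjusted p = 0.52), with a 95% interval from -0.12 to 2.21. Fads1 read 8.35, 8.30 and 8.39 in HFD PA, inside the ND PA spread of 8.79, 8.29 and 7.94. Insig1, whose protein retains SCAP and whose gene is itself an SREBP target, read 7.38, 7.36 and 7.75 in HFD PA, against 7.54, 7.42 and 7.69 in ND PA. The 95% interval of the Insig1 difference ran from -0.78 to 0.66. The median macrophage marker lay at 7.07, 6.21 and 8.12 in HFD PA, against 5.60, 4.96 and 4.20 in ND PA, and 7 of the 9 macrophage markers rose. The median cell cycle gene lay at 4.25, 4.84 and 5.18 in HFD PA, against 3.81, 3.47 and 3.36 in ND PA, where 4 of 14 rose. Endothelial markers lay at 5.53, 5.73 and 5.79 in HFD PA, against 5.16, 3.73 and 3.19 in ND PA, where 1 of 6 rose. Of 9 mature adipocyte markers tested, 1 rose, and 6 were above 0 with a median of 0.404. The part of these cells in the member differences was not tested.

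**Figure D4:**
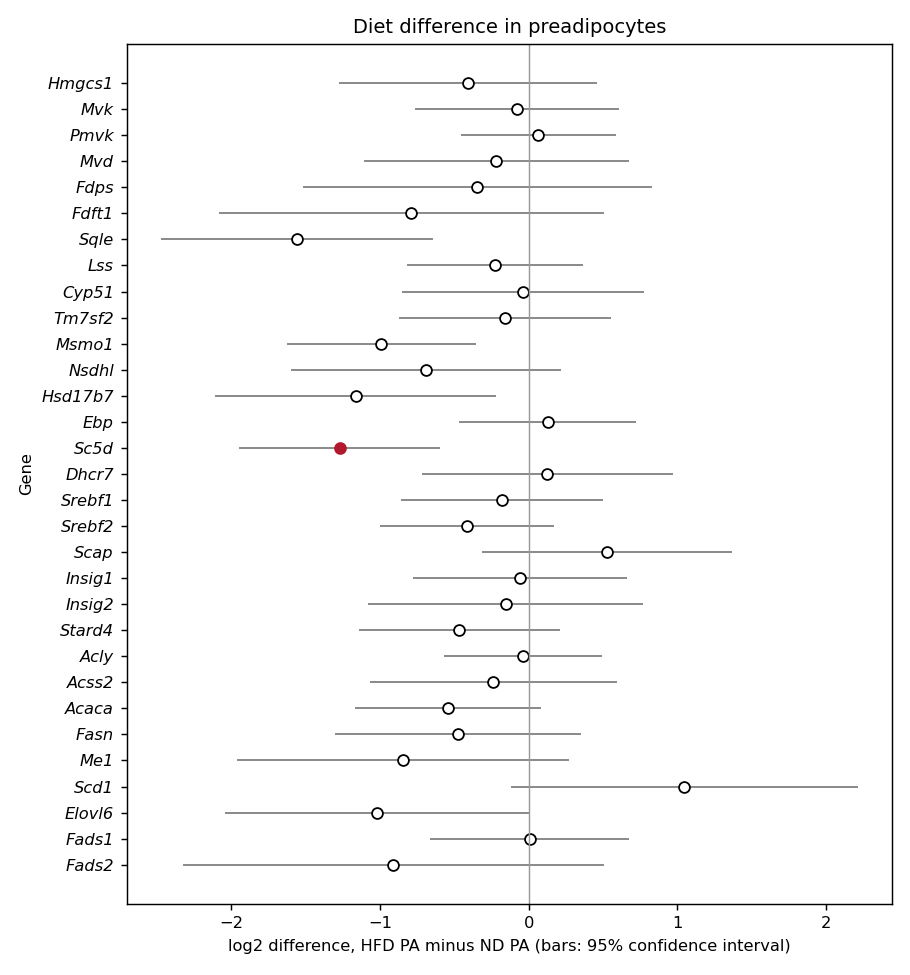
Log2 difference between HFD PA and ND PA for each of the 31 members, ordered by role, with the 95% confidence interval of the limma fit; the filled red point marks the gene past the threshold. Sc5d, at -1.27, is the filled point, and Scd1, at 1.05, has the interval from -0.12 to 2.21.

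In CD11c- ATM, no member passed between HFD and ND (0 of 31, limma; 0 also at an unadjusted p under 0.05), against 0.613% of all tested genes. Member differences had a median of 0.12, and 19 were above 0, against a median of 0.014 over all tested genes. Fibroblast and preadipocyte markers were above 0 for 10 of 10 genes in HFD CD11c- ATM, with a median of 2.46 and 3 called. Cell cycle genes were above 0 for 14 of 14, with a median of 1.09 and 0 called. The part of these lists was not tested. In ATDC, 0 of 31 passed as well (limma), against 0.258% of all tested genes, and 2 had an unadjusted p under 0.05; 1 member passed without ND ATDC 2. Both were lower in HFD ATDC. Hsd17b7 read 1.76, 3.14 and 3.32 in HFD ATDC, against 3.75 and 4.53 in ND ATDC (-1.40 ± 0.51, limma, adjusted p = 0.36). Elovl6 read 4.26, 4.08 and 3.82 in HFD ATDC, against 5.64 and 4.96 in ND ATDC (-1.25 ± 0.55, limma, adjusted p = 0.51). Of all 31 differences in ATDC 23 were below 0, with a median of -0.215 against 0.0145 over all tested genes.

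Whether diet acted differently on PA than on CD11c- ATM was tested as an interaction, the HFD minus ND difference in PA minus that in CD11c- ATM. No member passed (0 of 31, limma), against 0.277% of all tested genes, and 5 had an unadjusted p under 0.05, each with the PA difference below the ATM difference. Sqle and Sc5d had the lowest adjusted p of these, 0.21 for both, with interactions of -2.18 ± 0.66 and -1.61 ± 0.49. In CD11c- ATM the diet differences themselves were 0.62 ± 0.49 for Sqle and 0.34 ± 0.36 for Sc5d. Marker lists shifted with diet in both cell types, as given above, and their part in the interaction was not tested.

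Within obese mice, CD11c+ ATM were compared with CD11c- ATM. No member passed (0 of 31, limma; 0 at an unadjusted p under 0.05), against 0.00645% of all tested genes. Of the 31 differences 24 were above 0, with a median of 0.305 against 0.0367 over all tested genes. All 5 mevalonate and isoprenoid genes and 10 of the 11 genes from squalene to cholesterol were on that side. Srebf2 read 7.44, 7.46 and 7.38 in HFD CD11c+ ATM, against 6.59, 6.92 and 7.12 in HFD CD11c- ATM. These ranges did not overlap, and the difference was 0.55 ± 0.28 (limma, adjusted p = 0.79, 95% interval -0.03 to 1.14). Scap read 6.68, 6.51 and 6.65 in HFD CD11c+ ATM, against 5.34, 6.04 and 6.32 in HFD CD11c- ATM, likewise without overlap (0.71 ± 0.40, limma, adjusted p = 0.83). Fdft1, Lss and Acaca separated in the same way and Elovl6 in the reverse. No share over all tested genes is given for such separation, so whether these genes stand apart cannot be said. Other lists shifted beside the members with 0 genes called: 14 of 14 cell cycle genes were above 0 with a median of 0.862, 10 of 10 fibroblast markers were below 0 with a median of -1.54, and 13 of 15 dissociation stress genes were below 0. Their part in the member differences was not tested.

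Weight loss was examined in both macrophage groups. In CD11c- ATM 1 of 31 members, Sc5d, was lower in WL than in HFD and 0 higher, 3.23% against 2.96% of all tested genes in either direction and 1.79% lower. In CD11c+ ATM 0 of 31 passed (limma) between WL and HFD, with 6 at an unadjusted p under 0.05, against 1.33% of all tested genes called; 3 members passed there without WL CD11c+ ATM 3. Without WL CD11c- ATM 2, 2 members were called in WL against HFD CD11c- ATM. After weight loss, 2 of 31 members, Cyp51 and Sc5d, were higher in CD11c+ ATM than in CD11c- ATM and 0 lower, 6.45% against 1.34% of all tested genes in either direction and 0.691% higher. That count was 1 without WL CD11c+ ATM 3 or WL CD11c- ATM 1 and 3 without WL CD11c- ATM 2. These 3 comparisons share arrays, so their calls on Sc5d are not separate observations. Mast cell markers lay at 9.34 and 9.50 in WL CD11c- ATM, against 7.26, 2.32 and 5.17 in HFD CD11c- ATM, with 4 of 6 higher, and at 7.08, 6.40 and 6.58 in WL CD11c+ ATM. Dissociation stress genes, which respond to handling of cells, lay at 9.74 and 9.64 in WL CD11c- ATM, against 9.06, 8.77 and 8.69 in HFD CD11c- ATM, with 3 of 15 called higher and 14 above 0. Of the NK cell markers 6 of 6 were above 0 and 1 was called. Of the B cell and endothelial markers 5 of 6 were above 0 and 1 was called in each list. Macrophage markers were below 0 for 9 of 9 genes, with a median of -0.503, and cell cycle genes for 14 of 14, with a median of -0.477. Fibroblast markers were above 0 for 10 of 10, with a median of 0.67. In these last lists 0 genes were called. In WL CD11c+ against WL CD11c- ATM, 14 of 15 stress genes and 6 of 6 NK cell and B cell markers were below 0, while 14 of 14 cell cycle genes were above 0. The part of these cells, of the cell cycle and of handling in the results on WL CD11c- ATM was not tested.

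Sc5d read 4.86 and 5.61 in WL CD11c- ATM, against 6.72, 6.97 and 6.60 in HFD CD11c- ATM. Both WL arrays were lower than all of the 22 other arrays in the series, and the fall was 1.53 on the log2 scale (SE 0.36, limma, adjusted p = 0.027). The call was lost without WL CD11c- ATM 1 or HFD CD11c- ATM 1 or 2, at an adjusted p of up to 0.22. In WL CD11c+ ATM the gene read 7.79, 7.83 and 6.45, with replicate 3 well below the others. That was 2.13 ± 0.36 above WL CD11c- ATM (limma, adjusted p = 0.0047), a 4.36-fold difference, and without WL CD11c- ATM 1 the adjusted p was 0.054. The SE rests on a spread shared by all groups, with a pooled SD of 0.41 for Sc5d. Its SD was 0.78 in WL CD11c+ ATM and 0.53 in WL CD11c- ATM. With the compared groups alone or with array weights, no member was called between the WL groups or in WL against HFD CD11c- ATM. Against HFD CD11c+ ATM, at 6.86, 6.13 and 6.98, WL CD11c+ ATM overlapped (0.70 ± 0.32, limma, adjusted p = 0.23). The interaction, the WL minus HFD difference in CD11c+ ATM minus that in CD11c- ATM, was 2.23 ± 0.49 and did not pass (limma, adjusted p = 0.091). Sc5d had the lowest p of the members there, and 0 of 31 passed (2 at an unadjusted p under 0.05), against 0.161% of all tested genes, with 1 past it without WL CD11c+ ATM 3 or WL CD11c- ATM 2.

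Cyp51, the lanosterol 14-alpha demethylase, read 6.49, 6.31 and 7.29 in WL CD11c+ ATM, against 3.99 and 5.69 in WL CD11c- ATM. The groups did not overlap, but the WL CD11c- ATM arrays were far from each other. The rise of 1.86 ± 0.44 (limma, adjusted p = 0.04) was lost without WL CD11c- ATM 1 or WL CD11c+ ATM 3, at an adjusted p of up to 0.35. Hmgcs1 read 7.51, 7.21 and 6.84 in WL CD11c+ ATM, against 5.22 and 5.98 in WL CD11c- ATM (1.58 ± 0.46, limma, adjusted p = 0.096). Fads1 read 8.15, 7.86 and 7.76 in WL CD11c+ ATM, against 6.14 and 7.29 in WL CD11c- ATM (1.21 ± 0.36, limma, adjusted p = 0.10). Nsdhl, the C4-decarboxylase of sterol synthesis, was on the opposite side, at 6.53, 6.55 and 7.26 in WL CD11c+ ATM, against 7.84 and 7.65 in WL CD11c- ATM. Of the 31 differences 27 were above 0, with a median of 0.511 against 0.0332 over all tested genes. Every WL CD11c+ array lay above both WL CD11c- arrays for 8 members, 25.8% against 12.5% of all tested genes, and below them for 1 member, Nsdhl, 3.23% against 11.8%.

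Against HFD CD11c- ATM, 9 of the 11 genes from squalene to cholesterol had differences below 0 in WL CD11c- ATM, with a median of -0.473, and of these 11 only Sc5d passed. Cyp51 read 3.99 and 5.69 in WL CD11c- ATM, against 6.03, 6.40 and 6.60 in HFD CD11c- ATM (-1.50 ± 0.44, limma, adjusted p = 0.067). Against ND CD11c- ATM, 0 of 31 members passed in WL CD11c- ATM (limma; 5 at an unadjusted p under 0.05), against 6.18% of all tested genes, and 2 passed without WL CD11c- ATM 2. The nearest to the threshold was Fads1, at 6.14 and 7.29 in WL CD11c- ATM, against 7.84 and 8.07 in ND CD11c- ATM (-1.24 ± 0.39, limma, adjusted p = 0.069). Sc5d stood at -1.19 ± 0.40 in that comparison (limma, adjusted p = 0.086). In the same comparison 9 of 10 fibroblast markers rose, with a median of 3.45, and 6 of 6 mast cell markers did, with a median of 6.61, and their part was not tested.

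In CD11c+ ATM, the 3 WL arrays disagreed with each other on fatty acid genes. Me1 read 4.52, 4.35 and 7.05 in WL CD11c+ ATM, against 3.74, 3.38 and 4.00 in HFD CD11c+ ATM, with replicate 3 at the level of preadipocytes. Fads2 read 8.68, 6.22 and 5.04 in WL CD11c+ ATM, against 4.55, 4.43 and 5.36 in HFD CD11c+ ATM, and Scd1 read 8.24, 6.14 and 5.76, against 5.45, 4.91 and 5.32. There replicate 1 was the high array. The differences were 1.60 ± 0.53 for Me1, 1.87 ± 0.68 for Fads2 and 1.49 ± 0.56 for Scd1, with adjusted p-values of 0.12, 0.15 and 0.16 (limma). Fibroblast and preadipocyte markers lay at 7.11, 8.26 and 7.38 on these arrays, against 6.83, 6.01 and 5.76 in HFD CD11c+ ATM, with 2 of 10 called higher, and 6 of 6 mast cell markers were above 0 with a median of 3.01. Their part in the differences was not tested. Lss read 3.48, 3.05 and 2.86 in WL CD11c+ ATM, against 3.92, 3.64 and 4.50 in HFD CD11c+ ATM, without overlap (-0.89 ± 0.28, limma, adjusted p = 0.10).

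Dendritic cells were set against the macrophages of the same diet. In lean mice 1 of 31 members, Fads1, was lower in ND ATDC than in ND CD11c- ATM and 0 higher, 3.23% against 8.27% of all tested genes in either direction and 4.60% lower. Fads1 read 6.70 and 5.80 in ND ATDC, against 7.84 and 8.07 in ND CD11c- ATM. The 4 arrays did not overlap, and the fall was 1.71 on the log2 scale (SE 0.39, limma, adjusted p = 0.008), lost at an adjusted p of up to 0.13 without ND CD11c- ATM 2 or ND ATDC 2. Without ND ATDC 1, 2 members were called. Of the 31 differences 21 were above 0, with a median of 0.373 against -0.0103 over all tested genes. Acaca came nearest to a rise, at 4.67 and 5.17 in ND ATDC, against 3.54 and 4.10 in ND CD11c- ATM (1.10 ± 0.36, limma, adjusted p = 0.071). Srebf2 read 8.24 and 8.11 in ND ATDC, against 6.74 and 7.98 in ND CD11c- ATM (0.81 ± 0.34, limma, adjusted p = 0.18). Cell cycle genes rose there in 9 of 14 cases, with a median of 1.81, NK cell markers in 5 of 6 with a median of 2.70 and T cell markers in 1 of 4, while 4 of 15 stress genes fell and 1 rose. The part of these genes and cells was not tested.

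In obese mice, 0 of 31 members passed between HFD ATDC and HFD CD11c+ ATM (limma; 4 at an unadjusted p under 0.05), against 4.16% of all tested genes. Without HFD ATDC 2 the count was 3, and without HFD ATDC 3 it was 1. Of the 31 differences 24 were below 0, with a median of -0.28 against -0.0478 over all tested genes. All 11 genes from squalene to cholesterol were on that side, with a median of -0.473. Hsd17b7 came nearest to the threshold, at 1.76, 3.14 and 3.32 in HFD ATDC, against 4.33, 4.07 and 4.57 in HFD CD11c+ ATM (-1.58 ± 0.45, limma, adjusted p = 0.055). Fads1 read 6.43, 7.40 and 6.88 in HFD ATDC, against 8.09, 7.70 and 7.84 in HFD CD11c+ ATM (-0.97 ± 0.32, limma, adjusted p = 0.10).

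Further genes of the sterol and lipid system were taken from 3 lists: other SREBP-controlled genes, of which 10 of 16 were tested, genes of SREBP processing and sterol-regulated protein degradation (10 of 12), and targets of the sterol sensor LXR (7 of 8). In HFD PA, 1 SREBP-controlled gene and 1 LXR target were higher than in ND PA, and 1 SREBP-controlled gene was lower. Of all tested genes, 2.59% were called there. Abcg1, which exports cholesterol, was higher in HFD PA than in ND PA by 1.67 ± 0.31 (limma, adjusted p = 0.0046), and Lpin1, a phosphatidate phosphatase, by 1.04 ± 0.27 (limma, adjusted p = 0.043). Mid1ip1, which promotes polymerisation of acetyl-CoA carboxylase, was lower by 1.15 on the log2 scale (limma, adjusted p = 0.017). Abcg1 averaged 4.86 in HFD PA and 3.2 in ND PA, against 7.79 in HFD CD11c+ ATM. Of the macrophage markers, 7 of 9 rose in HFD PA as well, and their part was not tested. In HFD against ND CD11c- ATM, where 0.613% of all tested genes and no member were called, 1 of the 7 LXR targets rose. This was Abcg1, by 2.88 ± 0.35 (limma, adjusted p = 0.00033). In WL CD11c- ATM it stood 2.17 ± 0.38 above the same ND arrays (limma, adjusted p = 0.0022), and in WL CD11c+ ATM 1.56 ± 0.35 above WL CD11c- ATM (limma, adjusted p = 0.032).

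In HFD ATDC 3 of 7 LXR targets were lower than in HFD CD11c+ ATM and 0 higher, where 4.16% of all tested genes were called, with falls of 2.34 for the cholesterol exporter Abca1, 1.26 for Nr1h3, which encodes LXR alpha, and 0.94 for the apolipoprotein gene Apoe (limma, adjusted p = 6.4e-06, 0.029 and 0.0027). Lpin1 fell there by 1.05 (limma, adjusted p = 0.029). In ND ATDC 3 of 7 were lower than in ND CD11c- ATM and 1 higher, where 8.27% of all tested genes were called. Abca1 fell by 3.48, Mylip, a ubiquitin ligase, by 1.94 and Apoe by 1.70, while Abcg1 rose by 1.68 (limma, adjusted p = 3.9e-07, 0.011, 2.3e-05 and 0.0072). Of the SREBP-controlled genes, Thrsp fell by 1.65 (limma, adjusted p = 0.0069) and Mid1ip1 by 1.01 (limma, adjusted p = 0.05 after rounding). Thrsp averaged 2.49 in ND ATDC, under the lowest array median of 2.96, and 4.14 in ND CD11c- ATM, so the size of its fall is uncertain. Macrophage markers were below 0 for 9 of 9 genes in both comparisons, with medians of -1.26 in obese and -1.84 in lean mice and with 3 and 5 called, and their part in the falls of LXR targets was not tested.

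In ND PA against ND CD11c- ATM, where 23.4% of all tested genes were called, 2 of 10 SREBP-controlled genes were higher and 1 lower. Gpam, an acyltransferase at the entry of glycerolipid synthesis, rose by 1.72 and Ggps1, the geranylgeranyl diphosphate synthase, by 1.29. Lpin1 fell by 1.27 (limma, adjusted p = 0.0041, 0.048 and 0.0032 in this order). Of the 10 processing and degradation genes 1 was called: the SCAP-binding membrane protein gene Pgrmc1 rose by 1.07 (limma, adjusted p = 0.0033). Of the 7 LXR targets 1 was higher and 3 lower. Nr1h3 rose by 1.47, and Abca1, Mylip and Apoe fell by 1.48, 1.22 and 1.18 (limma, adjusted p = 0.0044, 0.00031, 0.042 and 9.1e-05). Macrophage markers were lower for 9 of 9 genes there, with a median of -5.45, and their part in these falls was not tested. In HFD PA against HFD CD11c+ ATM, where 25.2% of all tested genes were called, Abcg1, Abca1 and Apoe fell by 2.92, 0.97 and 0.51 (limma, adjusted p = 1e-06, 0.0049 and 0.036). The part of macrophage content in these falls was not tested either. Rdh11, a retinol dehydrogenase, fell by 1.21, and Erlin1, a sterol-regulated degradation factor, by 0.84 (limma, adjusted p = 0.021 and 0.017). Mbtps1, the Golgi protease that makes the first cut in SREBP, rose by 1.20 (limma, adjusted p = 0.0058). None of the tested genes of these 3 lists was called in HFD against ND ATDC, in HFD CD11c+ against HFD CD11c- ATM, or in either WL against HFD comparison (limma).

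Sterol enzymes tended to vary together between arrays of the same group. After each group's mean was taken out, the 120 pairs among 16 sterol enzymes had a median Pearson correlation of 0.318 over 24 arrays, with 97 of the 120 above 0, and a median Spearman correlation of 0.279. The 36 pairs among 9 fatty acid enzymes had a median of 0.113, with 20 above 0, and all pairs of tested genes a median of 0.010. Without the 5 WL arrays, the sterol median over 19 arrays was 0.430, with 105 pairs above 0. The most correlated pairs were Mvd with Fdps at 0.759, Sqle with Cyp51 at 0.749 and Mvk with Nsdhl at 0.738. The least were Ebp with Sc5d at -0.441 and Hsd17b7 with Ebp at -0.426. The points share arrays and a common normalisation, so these values only describe the 24 arrays. With the group means taken out, 15 degrees of freedom remained. The pairs of all tested genes were not matched to the enzymes for expression level.

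The spread can be seen in single genes. Fdps read 5.08, 7.12 and 7.55 in HFD ATDC, Hmgcs1 read 5.35, 6.96 and 7.04, and Dhcr7, a reductase of the last step to cholesterol, read 3.42, 5.18 and 5.41. In all 3, HFD ATDC 1 was low, and on that array the median macrophage marker was 8.14, against 9.62 and 9.28 on the others. Mast cell markers lay at 6.27 on that array, against 2.28 and 2.93, and NK cell markers at 6.39, against 4.63 and 5.07, and the part of these cells was not tested. Pmvk and Ebp were instead highest there, at 6.82 and 7.51. In ND ATDC, Mvd read 4.26 and 5.89, and Fdft1 read 2.92 and 6.52, both with ND ATDC 1 as the low array. Dhcr7, at 5.97 and 4.96, Tm7sf2, at 5.52 and 5.07, and Lss, at 3.74 and 3.64, went the other way in ND ATDC. Fdps had the highest median correlation with the other sterol enzymes, 0.599, followed by Mvd at 0.476. Ebp and Tm7sf2, the sterol C14-reductase, had medians of 0.020 and -0.077.

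**Figure D5:**
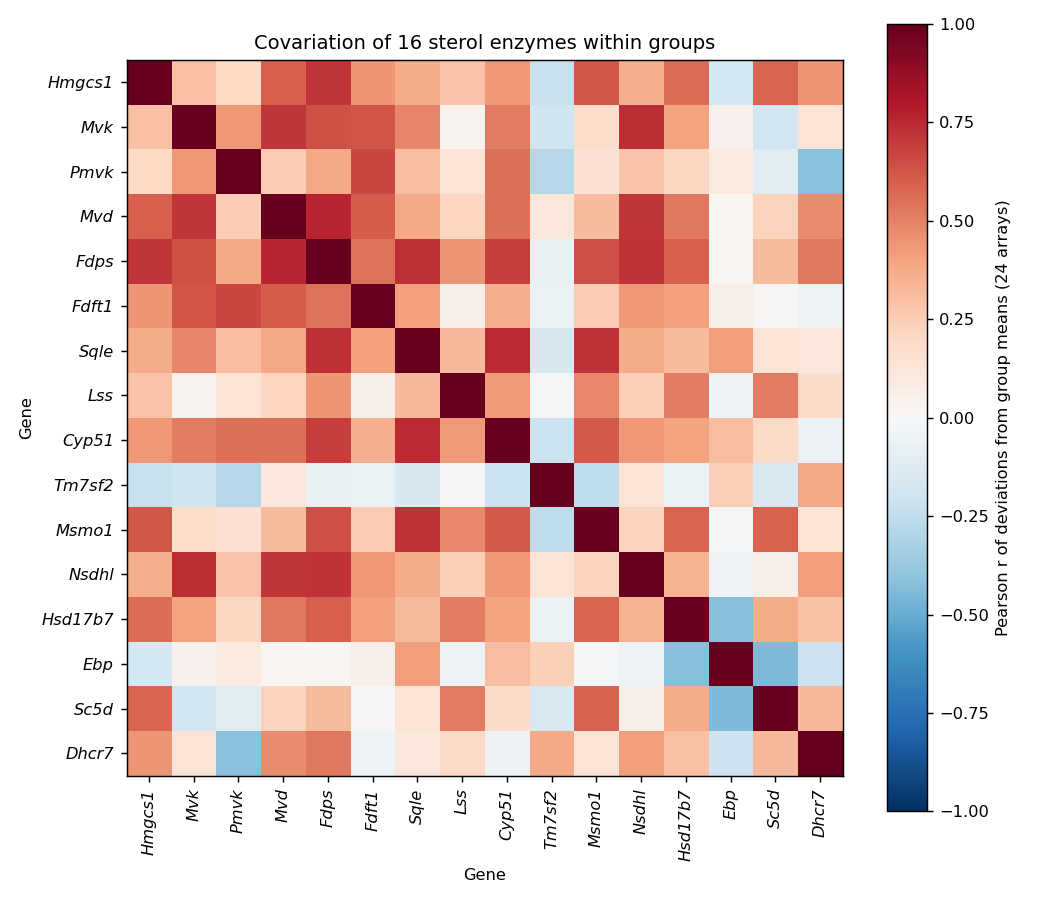
Pearson correlations between the 16 measured sterol enzymes over 24 arrays, each value taken as the deviation from its group's mean. Most off-diagonal cells are above 0 (97 of 120), and the rows of Ebp and Tm7sf2 have medians of 0.020 and -0.077.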

How the data were processed

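RNA of sorted fat stromal cells was amplified and biotin-labelled (NuGEN kits, 50 ng of RNA and 2.5 ug of cDNA per the labels' protocols) and hybridised to 24 1-colour arrays. The deposited values are log2 expression values, which the authors made with RMA, oligo and limma per the submitters' processing notes; neither versions nor whether limma altered the values were stated, and no further normalisation was applied. Of 41345 rows, 23521 had 1 gene symbol, 1814 several and 16010 none; symbols came from GEO's platform annotation, and 23328 matched RefSeq with 0 changed. For 1082 genes with several rows, the row with the highest mean was used. Genes above the array's own median on at least 2 arrays were tested. limma 3.58.1 (R 4.3.3) fitted 1 mean per group to all 24 arrays, with 15 residual degrees of freedom before moderation, for 12 comparisons and 2 interactions. Two-sided p-values were adjusted by Benjamini-Hochberg over the 15496 genes within each comparison, with a threshold of 0.05. Folds are 2 to the power of the log2 difference and understate change in dim genes. Probe signals of different genes were not compared. The fit was tested on simulated data. The members and gene lists were chosen with earlier results of these data known. Any member could be named; those past the threshold are given with every array, and other members shown by array were chosen after their values were seen. Of each further list up to 4 genes past the threshold per comparison are named, by size. Alternatives were no filter, a fit of the compared groups only, array weights, a replicate block, cyclic loess, the most variable row of a gene, and leaving out arrays. In a group of 2, leaving out 1 array leaves a lone array that is assumed to vary like the other groups. No raw scans, slides or scan dates were used here.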

Additional observations from a re-analysis of the deposited data

How the results depend on the processing

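Array number limited precision throughout. Of 234 recomputed values for 19 calls on single genes, 187 kept their call, 47 lost it and 0 reversed; 8 of the 19 kept it in every setting. Member counts moved as follows. For HFD PA against ND PA, with 1 call, the count was 0 with no filter, 3 with array weights, 2 with a replicate block, 0 after cyclic loess and 0 on leaving out any array. For WL against HFD CD11c- ATM, with 1 call, it was 0 with the compared groups alone, 0 with array weights, 0 after cyclic loess, 0 without the least similar array of each group of 3 (an alternative chosen after seeing the data), and 0 to 2 on leaving out 1 array. For WL CD11c+ against WL CD11c- ATM, with 2 calls, it was 0 with the compared groups alone, 0 with array weights, 1 with the replicate block, 1 without the least similar arrays, and 1 to 3 on leaving out 1 array. For HFD ATDC against HFD CD11c+ ATM, with 0 calls, it was 2 with array weights and 0 to 3 on leaving out 1 array. For ND ATDC against ND CD11c- ATM, with 1 call, it was 0 with the compared groups alone, 2 after cyclic loess and 1 to 2 on leaving out 1 array. For ND PA against ND CD11c- ATM, with 8 calls, it was 13 with array weights and 5 to 10 on leaving out 1 array. Leaving out 1 array gave 5 in each case for HFD PA against HFD CD11c+ ATM, with 6 calls, 0 to 1 for HFD against ND ATDC, 0 to 3 for WL against HFD CD11c+ ATM (3 without WL CD11c+ ATM 3), 0 to 2 for WL against ND CD11c- ATM, 0 to 1 for the weight loss interaction, and 0 for HFD against ND CD11c- ATM, for HFD CD11c+ against HFD CD11c- ATM and for the diet interaction. The cause of these moves was not tested. Same-numbered arrays of different groups correlated in their deviations at -0.131 to 0.252 over 87 pairs. They reached 0.006 to 0.252 between HFD CD11c+ and HFD CD11c- ATM, 0.065 to 0.115 between HFD PA and HFD CD11c+ ATM and 0.027 to 0.106 between HFD ATDC and HFD CD11c+ ATM, so not every pair was over 0.1, and whether same-numbered pools share mice is not settled. The replicate block is given as an alternative only.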
